A study of Ictidomys tridecemlineatus with 10 samples.

Results

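The genes of glucose uptake, glycolysis, glycogen turnover and pyruvate entry into mitochondria were examined in RNA of the subfornical organ, a brain structure that senses blood composition to drive thirst, of the hibernating thirteen-lined ground squirrel. The list held 36 gene symbols, and all 36 had a mean of at least 1 unit of normalised CPM (reads scaled to library size) over the 10 libraries, out of 15445 genes at that level and 25964 genes listed. Of these members, 35 were found by symbol, and Slc2a3 was found under its gene identifier LOC101967364, which the RefSeq gene table of the assembly mIctTri1.hap1 pairs with that symbol. Member means ran from 12.4 to 2073 CPM. The 5 libraries of the interbout arousal (IBA) group came from hibernating animals that were warm and awake, in one of the spontaneous rewarmings that interrupt torpor. The 5 Active libraries came from animals outside hibernation. The series' design text calls the 5 libraries of each state biological replicates, and the labels give no age, sex, feeding or time within the arousal. The tissue was cut out of coronal slices by hand, and mRNA libraries were sequenced.

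Glucose enters brain cells through facilitative transporters, is trapped by hexokinase and is split by glycolysis into pyruvate. Pyruvate is either turned into lactate by lactate dehydrogenase or carried into mitochondria, where the pyruvate dehydrogenase complex makes acetyl-CoA from it. Pyruvate dehydrogenase kinases switch that complex off, and its phosphatase switches it on again. Brain glycogen, held mostly by astrocytes, is built by glycogen synthase with the branching enzyme and is broken down by glycogen phosphorylase. In hibernators, fuel use is known to shift from glucose towards fat and ketone bodies during the hibernation season, and control of pyruvate dehydrogenase is one of the known switch points. The comparison asks whether transcripts of these steps differed between the hibernating and the non-hibernating state.

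The libraries held 24195342 to 35382203 reads in IBA and 20993093 to 30713168 reads in Active, recovered from the CPM values. The summed genes of a subfornical organ list, among them the angiotensin receptor gene Agtr1 and the sodium channel gene Scn7a, were present in every library. Their sum was 857 to 1451 CPM in IBA and 664 to 1047 CPM in Active. Most of that sum was Scn7a, at a mean of 818 CPM over the 10 libraries, and it is not read here as neuron content. Rxfp1, another gene of this list, was at or near 0. Active replicate 4 stood apart by its choroid plexus markers, which summed to 11978 CPM, against 494 to 1899 CPM in the other Active libraries and 400.4 to 2525 CPM in IBA. The same library had the lowest summed astrocyte markers, 10322 CPM, where the ranges were 13521 to 18103 CPM in IBA and 10322 to 25139 CPM in Active. Gfap, at a mean of 8400 CPM over the 10 libraries, made up much of the astrocyte sums given here and below. Summed microglia markers were 181 to 235 CPM in IBA and 127 to 209 CPM in Active. Of the 7 tested, 5 were higher in IBA on the log2 scale and the others lower. P2ry12 and Tyrobp, 2 of the 7, passed limma's test as higher in IBA (adjusted p = 0.0347 for each), where 0.401% of all genes passed. The part of microglia content in the values below was not tested. Summed oligodendrocyte markers ran from 627 to 3376 CPM in IBA and 757 to 1852 CPM in Active, with the highest value in IBA replicate 4. In bulk tissue, fewer cells of a type and less RNA per cell cannot be told apart, so each level below is that of the dissected tissue. CPM values are not corrected for gene length, and levels of different genes are therefore not compared.

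None of the 36 members passed limma's test at an adjusted p of 0.05 over all 15445 genes, of which 62, or 0.401%, passed. On reads recovered from the CPM values, edgeR's quasi-likelihood test called 0 members and 57 genes in all, and DESeq2 called 1 member, Slc2a1, among 1527 genes. The lowest adjusted p of a member in limma was 0.104. At an unadjusted p under 0.05 there were 8 members, or 22.2%, against 23.9% of all genes tested, so the share of the members lay near that of the other genes. Of these, 6 were higher in IBA (Pgk1, Gapdh, Pygb, Ldha, Gpi and Gbe1), a direction shared by 12.7% of all genes at this level, and 2 were lower (Slc2a1 and Mpc2), with 11.1% of all genes. This balance depended on scaling and method. With median-of-ratios scaling, with equal library totals or in edgeR, 4 were higher and 3 lower, and in DESeq2 4 were higher and 4 lower. In each of these, Gpi and Gbe1 no longer had such a p, and Pfkfb3, lower in IBA, did. The count of 8 was 5 without IBA replicate 1, without IBA replicate 2 or without Active replicate 5, and also without Active replicates 4 and 5 together. The share of all genes with such a p fell too, to 18.6%, 18.7%, 17.9% and 14.2% in these fits. The count of members was 10 without IBA replicate 3 or IBA replicate 4, beside 23.0% and 22.3% of all genes. The count of 62 genes was between 4 and 245 when 1 library was left out. Values of the states did not overlap for 1 member, Pygb, or 2.78%, against 6.38% of all genes. Pygb was higher in IBA, as were 3.59% of all genes without overlap, and 0 members were lower without overlap, against 2.8% of all genes.

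On the log2(CPM + 0.5) scale the 36 differences, each as IBA minus Active, ran from -0.65 for Mpc2 to 0.65 for Ldha. The median difference of the members was 0.093, beside 0.033 for all genes tested, and 24 of 36 were above 0, or 66.7%, beside 54.1% of all genes. When all libraries were given equal totals, 20 of 36 were above 0, beside 46.7% of all genes. The 95% interval of the difference lay within 1 log2 unit of 0 for 33 members. The exceptions were Hk2, Ldha and Mpc2. The intervals of 28 members included 0.

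**Figure D1:**
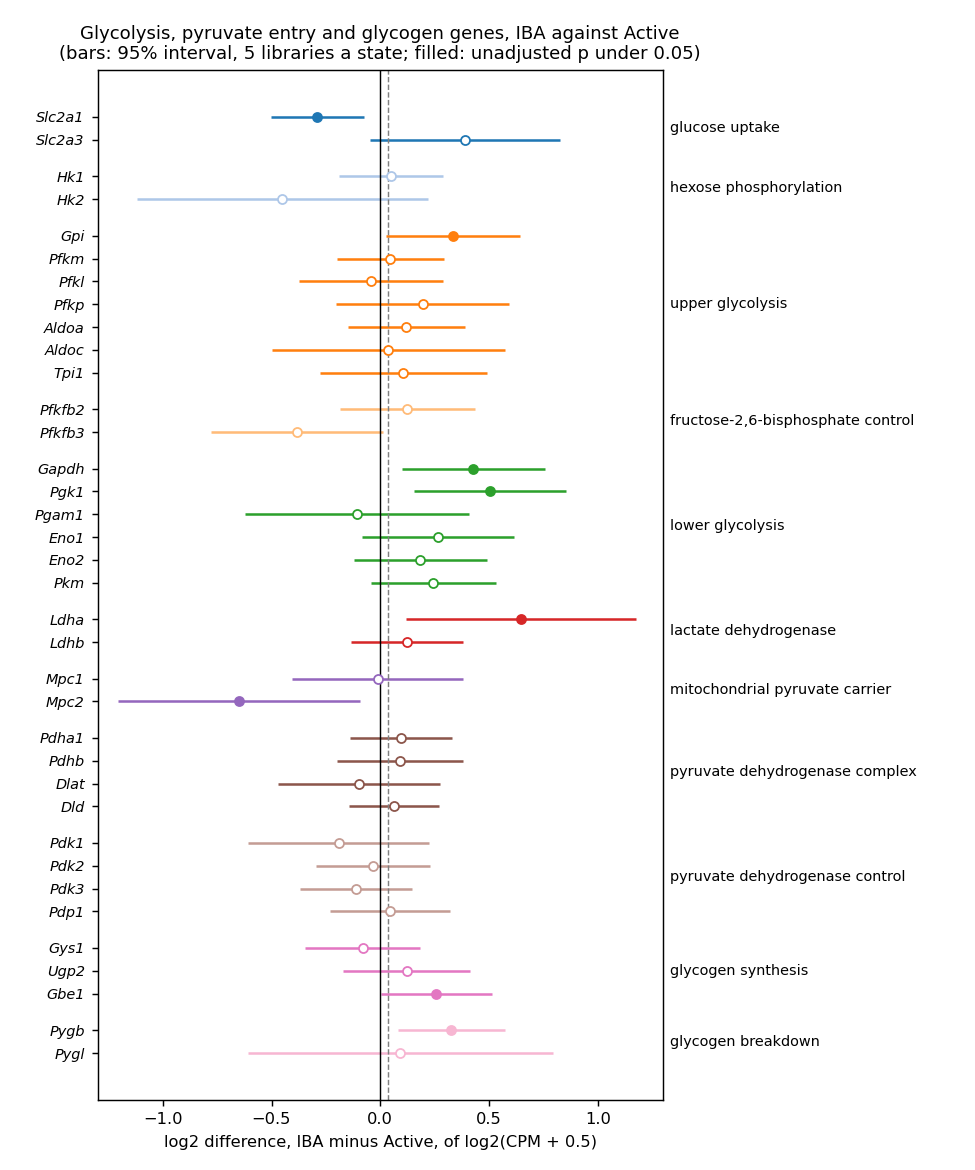
Log2 difference between IBA and Active for the 36 genes, grouped by role, with points for the estimate and bars for the 95% interval (5 libraries a state). Filled points had an unadjusted p under 0.05, the dashed line is the median of all genes tested, 0.033, and no gene passed after adjustment.

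Glucose uptake genes pointed in opposite directions. Slc2a1 encodes GLUT1, the glucose transporter of the blood-brain barrier and of astrocytes. Its level was 249, 241, 259.7, 286 and 284 CPM in IBA replicates 1 to 5 and 330.5, 313, 273, 348 and 352 CPM in Active replicates 1 to 5. The 3 lowest values were all IBA libraries, and 1 Active library, replicate 3, lay inside the IBA range. The means were 264 ± 20.3 CPM in IBA and 323 ± 32.4 CPM in Active (SD, n = 5 each), a log2 difference of -0.29 (95% interval -0.50 to -0.076, SE 0.098, limma's adjusted p = 0.114). Its adjusted p was 0.0288 in DESeq2 on the recovered reads, which called 1527 of 15445 genes where limma called 62. Over the alternatives run, its adjusted p ranged from 0.0288 to 0.398, and the difference from -0.35 to -0.21. Markers of endothelium, a cell type that carries much GLUT1, summed to 633 to 886 CPM in IBA and 457 to 975 CPM in Active. Most of that sum was Cldn5, at a mean of 648 CPM over the 10 libraries. Of the 8 markers, 4 had higher means in IBA on the log2 scale. The part of endothelium content in the Slc2a1 difference was not tested.

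Slc2a3 encodes GLUT3, the main glucose transporter of neurons. It was measured at 17.5, 15.2, 10.7, 10.4 and 17.0 CPM in IBA and 9.96, 12.6, 14.2, 8.24 and 8.36 CPM in Active. IBA replicates 1, 2 and 5 were above every Active library, and IBA replicates 3 and 4 lay among the Active values. The log2 difference was 0.39 (95% interval -0.047 to 0.83, limma's adjusted p = 0.258), which did not pass. The summed neuron markers were 1705 to 2504 CPM in IBA and 1637 to 2440.4 CPM in Active, and IBA replicate 1 had the highest and Active replicate 4 the lowest sum. The ratio of Slc2a1 to Slc2a3 within a library does not depend on how libraries are scaled. It was 14.2, 15.9, 24.2, 27.5 and 16.7 in IBA and 33.2, 24.8, 19.2, 42.3 and 42.2 in Active, so 3 IBA libraries lay below every Active library while the other 2 overlapped them. It is given as a description without a test, and since gene length was not used, its absolute size does not compare the transporters. Of 6 other glucose transporter genes, 1 had an unadjusted p under 0.05, beside 23.9% of all genes tested. It was Slc2a4, higher in IBA at a low level (3.00 CPM in IBA and 1.91 CPM in Active, a log2 difference of 0.51). Slc2a4 was singled out once its value was known.

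Hexokinases trap glucose as glucose 6-phosphate, and Hk1 is the form that prevails in brain. Hk1 was at 292 ± 32.2 CPM in IBA and 283 ± 32.9 CPM in Active (SD, n = 5 each), with ranges of 249.6 to 334 CPM in IBA and 246 to 326 CPM in Active. The log2 difference was 0.049 with a 95% interval of -0.19 to 0.29, and it was -0.0097 with equal library totals. Hk2, the inducible form, was far more variable. Its values were 85.0, 64.5, 42.1, 73.8 and 62.7 CPM in IBA and 157, 68.8, 87.9, 42.2 and 129 CPM in Active. Active replicates 1 and 5 were the highest of the 10 libraries, while Active replicate 4 was level with IBA replicate 3, the lowest. The difference of -0.45 (95% interval -1.12 to 0.22, limma's adjusted p = 0.394) was within the spread between libraries, and it ran from -0.71 to -0.24 when 1 library was left out. The unadjusted p of Hk2 was under 0.05 in 3 of 22 alternatives. These were DESeq2, the fit without Active replicate 4 and the fit without Active replicates 4 and 5. Active replicates 1 and 5 also had the highest astrocyte marker sums, 25139 and 22077 CPM. The part of astrocyte content in the values of Hk2 was not tested.

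The enzymes that carry glucose 6-phosphate to pyruvate and lactate had mostly higher means in IBA. Of the 15 genes of upper glycolysis, lower glycolysis and lactate dehydrogenase, 13 had a positive log2 difference, with a median of 0.18, where 54.1% of all genes tested were above 0. An unadjusted p under 0.05 was found for 4 of the 15, close to the 23.9% of all genes. Marker lists of cell types differed in direction. Of the neuron markers, 6 of 8 were higher in IBA, with a median log2 difference of 0.27. The subfornical organ list, which holds Scn7a, gave 5 of 6 and 0.29. For oligodendrocyte markers the values were 6 of 9 and 0.24, and for astrocyte markers 4 of 9 and -0.053. Microglia markers had the largest median, 0.57, with 5 of 7 higher. Endothelium markers gave 4 of 8 and -0.014, and pericyte markers 1 of 6 and -0.25. For ependyma the values were 1 of 6 and -0.35, for choroid plexus 2 of 8 and -0.23, and for fibroblasts 2 of 6 and -0.18. The part of cell content in the glycolytic differences was not tested. When all libraries were given equal totals, 11 of 15 were positive, where 46.7% of all genes tested were above 0. The same number, 11, was positive without IBA replicate 1 or without Active replicates 4 and 5. The count of 4 was 2 without IBA replicate 1, without IBA replicate 2 or without Active replicates 4 and 5. In these fits 18.6%, 18.7% and 14.2% of all genes had an unadjusted p under 0.05. The extremes were unevenly spread over the libraries. Among the 15 genes, IBA replicates 1 and 2 held the highest value for 7 and 6 genes, and Active replicate 5 the lowest value for 8.

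**Figure D2:**
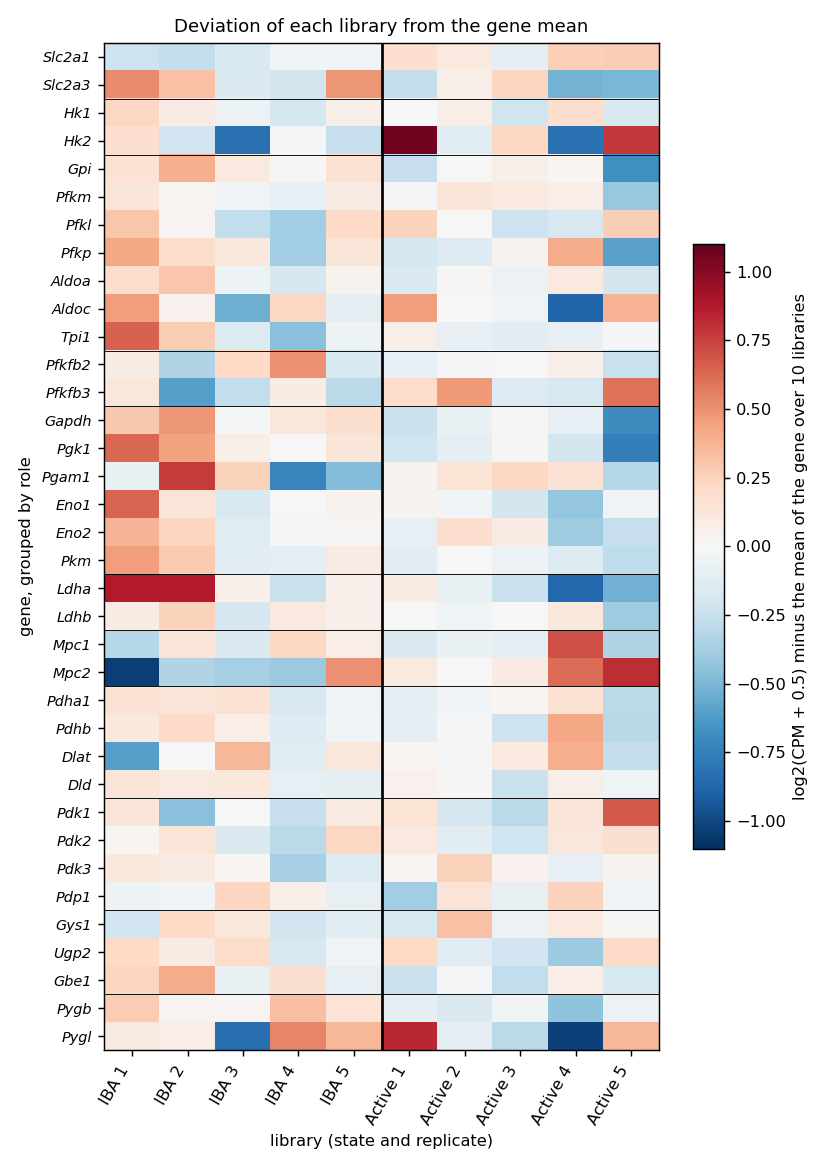
Deviation of each library from the gene's mean over the 10 libraries, in log2(CPM + 0.5), for the 36 genes in rows grouped by role and the IBA and Active libraries in columns. IBA replicates 1 and 2 were high for many glycolytic genes, Active replicate 5 was low for many, and Hk2, Aldoc and Pygl varied as much within a state as between states.

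Gpi, glucose-6-phosphate isomerase, had the smallest p in upper glycolysis. It was at 447, 525, 430.2, 403 and 448 CPM in IBA and 336, 398, 419, 406 and 251 CPM in Active. Active replicate 5 was far the lowest, and 4 IBA libraries were above every Active library. The log2 difference was 0.34 (95% interval 0.027 to 0.64, limma's adjusted p = 0.179) and 0.21 without Active replicate 5. Its unadjusted p was under 0.05 in 12 of 22 alternatives, which did not include edgeR, DESeq2 or either other scaling. The 3 genes of phosphofructokinase, the step that commits sugar to glycolysis, did not share this. Pfkm, the muscle-type subunit, averaged 351 ± 22.0 CPM in IBA and 343 ± 48.8 CPM in Active, and Pfkl, the liver-type subunit, 112 ± 22.7 CPM in IBA and 114 ± 18.4 CPM in Active. Their differences of 0.046 and -0.041 had intervals of -0.20 to 0.29 and -0.37 to 0.29. Pfkp, the platelet-type subunit, ranged from 228 to 399.7 CPM in IBA and 196 to 394 CPM in Active, a difference of 0.19 that was smaller than the spread of either state.

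Aldolase, which splits the sugar, and triose phosphate isomerase, which interconverts the resulting triose phosphates, also overlapped between states. Aldoa, the widely expressed aldolase, was at 1578 ± 216 CPM in IBA and 1446 ± 125 CPM in Active (log2 difference 0.12, 95% interval -0.15 to 0.39). Aldoc, the astrocyte-rich brain aldolase, had near-equal means of 523 ± 129.5 CPM in IBA and 522 ± 166 CPM in Active, but its libraries ranged from 346 to 690.4 CPM in IBA and 272 to 690.4 CPM in Active. The lowest Aldoc value was that of Active replicate 4, the library with the lowest astrocyte marker sum, and the highest was shared by IBA replicate 1 and Active replicate 1, which had the highest astrocyte sum of their states. The part of astrocyte content in this was not tested. Tpi1 was at 1512, 1173, 872, 702 and 930.3 CPM in IBA and 1011, 905, 885, 909 and 950.4 CPM in Active. The IBA values of Tpi1 spanned more than the Active ones, with both the highest and the lowest of the 10, and the difference of 0.11 (95% interval -0.28 to 0.49) was -0.042 without IBA replicate 1.

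Pfkfb2 and Pfkfb3 encode the bifunctional enzymes that make and remove fructose 2,6-bisphosphate, the strong activator of phosphofructokinase. Pfkfb3, the form with high kinase activity, was at 581, 350.0, 442, 562 and 434 CPM in IBA and 611, 736, 482, 472 and 806 CPM in Active. The 3 highest values were Active replicates 5, 2 and 1 and the 3 lowest IBA replicates 2, 5 and 3, with overlap between them. The log2 difference was -0.38 (95% interval -0.78 to 0.014, SE 0.18, limma's adjusted p = 0.223), and it stayed between -0.47 and -0.28 over the alternatives run. The unadjusted p of Pfkfb3 was under 0.05 in 9 of 22 alternatives, among them edgeR, DESeq2 and both other scalings. Pfkfb2 averaged 118 ± 27.2 CPM in IBA and 107 ± 8.17 CPM in Active, a difference of 0.12 (95% interval -0.19 to 0.43). Of 13 other glycolytic isoforms and regulators measured, 11 had a positive difference, and the median was 0.12. Against 23.9% of all genes tested, 1 of the 13 had an unadjusted p under 0.05. It was Galm, a sugar mutarotase, with a difference of 0.35 (limma's adjusted p = 0.170). Galm was singled out once its value was known.

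Lower glycolysis held Pgk1, the member with the smallest p. Pgk1 encodes phosphoglycerate kinase, the first ATP-yielding step. It was at 580.1, 510.0, 392, 374 and 410.1 CPM in IBA and 321, 350.3, 377, 326 and 223 CPM in Active. Of the IBA libraries, 4 lay above every Active library, and IBA replicate 4 fell just under Active replicate 3. The means were 453 ± 88.5 CPM in IBA and 319.7 ± 58.4 CPM in Active (SD, n = 5 each), a log2 difference of 0.50 (95% interval 0.15 to 0.85, SE 0.16, limma's adjusted p = 0.104). It was 0.38 without Active replicate 5, the lowest library, and 0.36 without Active replicates 4 and 5.

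Gapdh, glyceraldehyde-3-phosphate dehydrogenase, is widely used as a reference gene on the assumption that it does not vary. Here it was at 1681, 1908, 1358, 1487 and 1549.6 CPM in IBA and 1161, 1303, 1384, 1288 and 846 CPM in Active. Again 4 IBA libraries were above every Active library, and IBA replicate 3 was below Active replicate 3. The means were 1597 ± 209 CPM in IBA and 1196 ± 211 CPM in Active (SD, n = 5 each), and the log2 difference of 0.43 (95% interval 0.099 to 0.76, limma's adjusted p = 0.123) did not pass. Without Active replicate 5 it was 0.31. Pgk1, Gapdh and Pygb had an unadjusted p under 0.05 in each of the 22 alternatives run, all of which used these same libraries. For Gapdh, Pgk1, Ldha and other glycolytic genes, the mouse and human genomes hold processed copies, and no source used here says how reads matching several places were counted. Their levels are uncertain to that extent.

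The rest of lower glycolysis gave smaller or less even differences. Eno1, the widely expressed enolase, averaged 2275 ± 523 CPM in IBA and 1871 ± 231 CPM in Active. Eno2, the enolase of neurons, averaged 969 ± 140.4 CPM in IBA and 855 ± 140.1 CPM in Active. Their log2 differences were 0.26 (95% interval -0.086 to 0.61) and 0.18 (95% interval -0.12 to 0.49). Pkm, pyruvate kinase, was at 1828, 1626, 1227, 1236 and 1412 CPM in IBA and 1223, 1328, 1275, 1199 and 1097 CPM in Active, with IBA replicates 1, 2 and 5 above every Active library. Its difference was 0.24 (95% interval -0.043 to 0.53, limma's adjusted p = 0.278). Pgam1, phosphoglycerate mutase, varied widely in IBA, where it was at 334, 602, 422, 214 and 255 CPM, beside 365, 394, 416, 395 and 285 CPM in Active. IBA libraries held both its highest and its lowest value, and the difference of -0.11 had an interval of -0.62 to 0.41.

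Lactate dehydrogenase is assembled from subunits of a pair of genes. Ldha encodes the subunit that favours making lactate, and Ldhb the one that favours its oxidation. Ldha had the largest positive difference of the members. It was at 1147, 1147, 650.4, 530.2 and 652 CPM in IBA and 668, 597, 530.0, 344 and 434 CPM in Active. IBA replicates 1 and 2 were far above the other 8 libraries, while IBA replicates 3, 4 and 5 lay within the Active range. The means were 825 ± 298 CPM in IBA and 514 ± 128 CPM in Active (SD, n = 5 each), and the log2 difference was 0.65 (95% interval 0.12 to 1.17, SE 0.24, limma's adjusted p = 0.140). It was 0.51 without either IBA replicate 1 or IBA replicate 2, and 0.40 without Active replicates 4 and 5. IBA replicate 1 had the lowest oligodendrocyte marker sum of the 10 libraries, 627 CPM. IBA replicate 2, at the same Ldha level, had 1049 CPM. The highest sum, 3376 CPM, was in IBA replicate 4, the IBA library with the lowest Ldha value. Active replicate 5 went the other way, with the next lowest oligodendrocyte sum, 757 CPM, and the next lowest Ldha value. The lowest Ldha value of all was in Active replicate 4, the library with the most choroid plexus RNA. Summed neuron markers were also lowest of their states in IBA replicate 4 and Active replicate 4, at 1705 and 1637 CPM. The highest neuron sum in Active, 2440 CPM, was in Active replicate 3, whose Ldha value was not the highest of that state. The part of cell content in the Ldha difference was not tested.

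Ldhb was at 663, 746, 552, 675 and 651 CPM in IBA and 627, 606, 629, 685 and 479 CPM in Active, and the groups overlapped. Its log2 difference was 0.12 with a 95% interval of -0.14 to 0.38. The ratio of Ldha to Ldhb was 1.73, 1.54, 1.18, 0.786 and 1.002 in IBA libraries and 1.06, 0.985, 0.843, 0.503 and 0.906 in Active libraries. IBA replicates 1, 2 and 3 were above every Active library, IBA replicates 4 and 5 were among them, and the ratio is described without a test. Genes of lactate transport gave 1 of 6 at an unadjusted p under 0.05, beside 23.9% of all genes tested. It was Slc16a3, the lactate-exporting transporter MCT4, at 1.35, 3.87, 2.33, 2.27 and 1.72 CPM in IBA and 2.56, 4.54, 4.16, 3.17 and 3.56 CPM in Active. The groups overlapped at these low levels, and the difference was -0.58 (limma's adjusted p = 0.161). Slc16a1, the broadly expressed transporter MCT1, was at 256 ± 45.8 CPM in IBA and 236 ± 60.1 CPM in Active, a difference of 0.14 (95% interval -0.28 to 0.57).

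**Figure D3:**
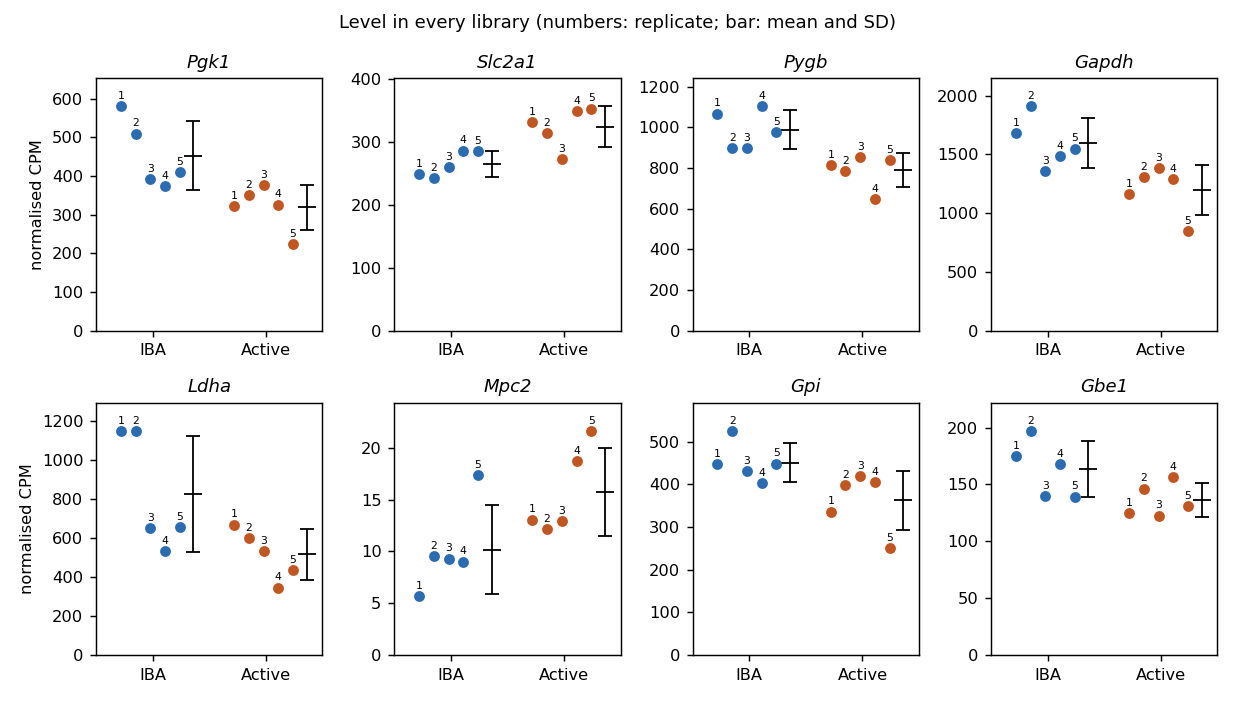
Normalised CPM in every library for the 8 genes with an unadjusted p under 0.05, IBA left of Active, with replicate numbers at the points and a bar for the mean and SD of 5 libraries. The states did not overlap for Pygb and overlapped for the other 7, and IBA replicates 1 and 2 stood above all other libraries for Ldha.

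Pyruvate enters mitochondria through a carrier built from Mpc1 and Mpc2 subunits. Mpc2 was at 5.64, 9.54, 9.30, 9.01 and 17.4 CPM in IBA and 13.1, 12.1, 12.9, 18.7 and 21.6 CPM in Active. Of the IBA libraries, 4 lay below every Active library, but IBA replicate 5 was above 3 of the Active libraries. The means were 10.2 ± 4.32 CPM in IBA and 15.7 ± 4.24 CPM in Active (SD, n = 5 each), a log2 difference of -0.65 (95% interval -1.21 to -0.093, SE 0.26, limma's adjusted p = 0.155). The difference was -0.47 without IBA replicate 1 and -0.39 without Active replicates 4 and 5. Mpc1 had means of 135 ± 20.3 CPM in IBA and 139 ± 45.4 CPM in Active and a difference of -0.013 (95% interval -0.40 to 0.38). Active replicate 4 stood highest for Mpc1, at 219 CPM, and without that library the difference was 0.16. The ratio of Mpc1 to Mpc2 was 19.1, 15.5, 12.9, 17.4 and 8.11 in IBA and 9.17, 10.5, 9.64, 11.7 and 4.91 in Active. In 4 IBA libraries this ratio was above every Active library, and in IBA replicate 5 it was below all Active libraries but replicate 5.

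**Figure D4:**
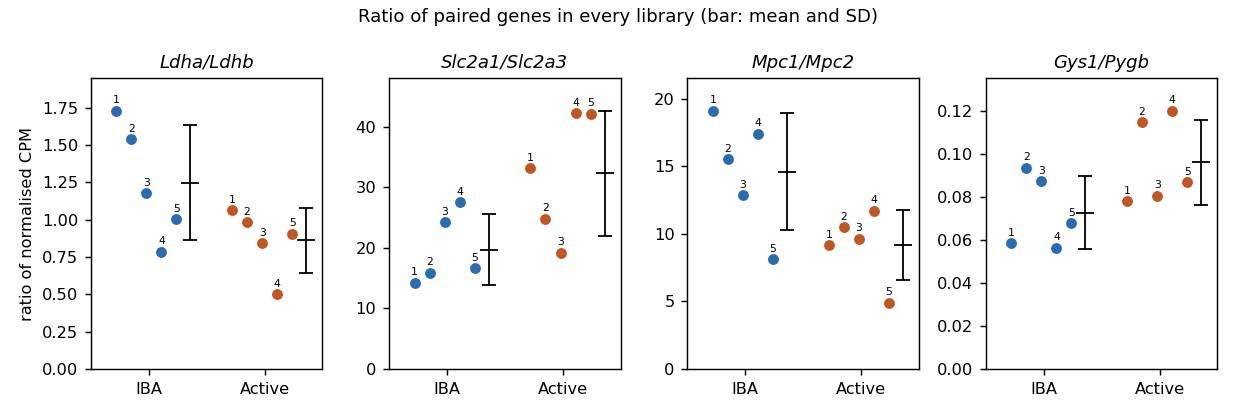
Ratio of normalised CPM between paired genes in every library, for Ldha over Ldhb, Slc2a1 over Slc2a3, Mpc1 over Mpc2 and Gys1 over Pygb, with IBA left of Active and a bar for the mean and SD of 5 libraries. All 4 ratios overlapped between the states.

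The pyruvate dehydrogenase complex and its control genes gave no difference beyond the spread between libraries. Of 4 subunit genes and 4 control genes, 0 had an unadjusted p under 0.05 in limma, against 23.9% of all genes tested. Of the same genes, edgeR and DESeq2 called 0. The difference was above 0 for 4 of 8. All 8 intervals included 0, and together they reached from -0.61 to 0.38. Pdha1, the catalytic alpha subunit that the kinases phosphorylate, was at 218, 216, 219.6, 173 and 189 CPM in IBA and 183, 192, 198, 219 and 159 CPM in Active. The ranges overlapped almost fully, and the log2 difference was 0.097 (95% interval -0.14 to 0.33). Pdhb, its beta partner, averaged 204 ± 19.0 CPM in IBA and 194 ± 41.9 CPM in Active. Dlat, the acetyltransferase core, averaged 89.5 ± 21.3 CPM in IBA and 94.6 ± 16.0 CPM in Active, and Dld, the dehydrogenase that the complex shares with other keto acid dehydrogenases, 313 ± 25.1 CPM in IBA and 300.1 ± 25.2 CPM in Active. Their differences were 0.092, -0.098 and 0.062.

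Pdk1, Pdk2 and Pdk3 encode kinases that inactivate the complex. Pdk1, whose gene is a target of hypoxia-inducible factor, was at 13.3, 8.66, 12.1, 10.1 and 13.01 CPM in IBA and 13.5, 10.6, 9.75, 13.4 and 19.6 CPM in Active. Active replicate 5 held the highest value and IBA replicate 2 the lowest, and the rest were mixed. The difference was -0.19 (95% interval -0.61 to 0.23, limma's adjusted p = 0.572). Pdk2, a broadly expressed kinase, averaged 105 ± 15.2 CPM in IBA and 107 ± 12.4 CPM in Active (SD, n = 5 each), and its interval of -0.29 to 0.23 was among the narrower ones. Pdk3 averaged 28.9 ± 3.97 CPM in IBA and 31.1 ± 2.75 CPM in Active, a difference of -0.11 (95% interval -0.37 to 0.14). Pdp1, the phosphatase that reactivates the complex, averaged 35.6 ± 3.41 CPM in IBA and 34.8 ± 5.77 CPM in Active, a difference of 0.045 (95% interval -0.23 to 0.32). The ratio of Pdk2 to Pdp1, a kinase over the opposing phosphatase, was 3.18, 3.36, 2.28, 2.34 and 3.75 in IBA and 4.24, 2.51, 2.76, 2.74 and 3.48 in Active, with overlap. Relative to Pdha1, the kinase genes had mean ratios of 0.0568 ± 0.0106 in IBA and 0.0726 ± 0.0297 in Active for Pdk1, and of 0.142 ± 0.00689 in IBA and 0.166 ± 0.0259 in Active for Pdk3 (SD, n = 5 each).

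Pdk4 is the kinase gene known to be induced by fasting and in tissues of hibernating mammals, and it was outside the list of 36. It was at 12.4, 18.2, 11.9, 15.1 and 12.3 CPM in IBA and 18.4, 6.33, 8.39, 23.4 and 5.79 CPM in Active. The IBA libraries were close together, and the Active ones lay both above and below them, with the highest value in Active replicate 4. The difference of 0.36 (95% interval -0.39 to 1.10, limma's adjusted p = 0.550) did not pass, and it was 0.63 without Active replicate 4. Pdhx, the binding protein that docks Dld to the core, was at 33.5 ± 4.95 CPM in IBA and 39.5 ± 6.06 CPM in Active (log2 difference -0.23, limma's adjusted p = 0.306). Of the 4 further complex and control genes measured, 1 had an unadjusted p under 0.05, beside 23.9% of all genes tested. This was Pdpr, the regulatory subunit of the phosphatase, with a difference of 0.30 (limma's adjusted p = 0.175), singled out once its value was known.

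Glycogen genes held the member with no overlap between states. Pygb encodes the brain form of glycogen phosphorylase, which releases glucose 1-phosphate from glycogen. It was at 1068, 897, 898, 1103 and 977 CPM in IBA and 816, 786, 855, 647 and 839 CPM in Active. Every IBA library was above every Active library. The means were 989 ± 95.3 CPM in IBA and 789 ± 83.2 CPM in Active (SD, n = 5 each), a log2 difference of 0.33 (95% interval 0.082 to 0.57, SE 0.11), and the adjusted p of 0.117 in limma did not pass. Over the alternatives run the difference stayed between 0.26 and 0.36, and it was 0.26 without Active replicate 4, the lowest library. Astrocytes express Pygb strongly. The summed astrocyte markers, much of them Gfap, averaged 16165 CPM in IBA and 18827 CPM in Active, with overlap. By gene, 4 of 9 astrocyte markers were higher in IBA, with a median log2 difference of -0.053. Active replicate 4, the lowest for Pygb, also had the lowest astrocyte sum, 10322 CPM. The highest sum, 25139 CPM, was in Active replicate 1, where Pygb was at 816 CPM. The part of cell content in the Pygb difference was not tested.

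Pygl, the liver form of phosphorylase, was at 146, 144, 76.7, 199 and 176 CPM in IBA and 244, 127, 111, 67.2 and 177 CPM in Active. Its within-state spread was among the widest of the members, and the means hardly differed (149 ± 46.0 CPM in IBA and 145 ± 67.8 CPM in Active). The 95% interval of its log2 difference was -0.61 to 0.79. Like Aldoc, Pygl was highest in Active replicate 1 and lowest in Active replicate 4, the libraries with the highest and the lowest summed astrocyte markers. Gfap was at 14255 and 3548 CPM in these libraries. Slc1a3, Gja1, Glul, Atp1b2 and Slc4a4 were also higher in Active replicate 1 than in Active replicate 4. Slc1a2 was near level, and Aqp4 (179 and 209 CPM) and Aldh1l1 (22.2 and 62.8 CPM) were lower. The part of astrocyte content in Pygl was not tested.

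On the synthesis side, Gbe1, the glycogen branching enzyme, was at 175, 197, 140.0, 168 and 139 CPM in IBA and 125, 146, 123, 156 and 131 CPM in Active. IBA replicates 1, 2 and 4 were above every Active library, and the other 2 lay inside the Active range. The log2 difference was 0.26 (95% interval 0.0024 to 0.51, limma's adjusted p = 0.206). Its unadjusted p was under 0.05 in 11 of 22 alternatives. Gys1, glycogen synthase, averaged 70.6 ± 9.95 CPM in IBA and 74.7 ± 10.1 CPM in Active, a difference of -0.081 (95% interval -0.35 to 0.18). Ugp2, which makes the UDP-glucose that the synthase uses, averaged 86.1 ± 9.90 CPM in IBA and 79.9 ± 15.0 CPM in Active, a difference of 0.12 (95% interval -0.17 to 0.41). The ratio of Gys1 to Pygb, synthase over phosphorylase, was 0.0584, 0.0937, 0.0873, 0.0565 and 0.0677 in IBA and 0.0782, 0.115, 0.0806, 0.120 and 0.0868 in Active. It was below every Active library in IBA replicates 1, 4 and 5, and overlapped in the other 2.

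Among 24 further glycogen enzymes and regulators measured, 3 had an unadjusted p under 0.05, where 23.9% of all genes tested had such a p. All 3 were higher in IBA, and the median difference of the 24 was 0.085. Phkg2 encodes a catalytic subunit of phosphorylase kinase, which activates glycogen phosphorylase. It was at 105, 113, 86.3, 98.3 and 102 CPM in IBA and 80.6, 79.2, 83.8, 77.0 and 75.9 CPM in Active, so the states did not overlap. Its log2 difference was 0.34 (SE 0.090, limma's adjusted p = 0.0749 and 0.0182 in DESeq2, which called 1527 genes in all). Ppp1r3b, a subunit that targets protein phosphatase 1 to glycogen and so promotes synthesis, was at 96.4, 85.5, 119, 65.4 and 72.6 CPM in IBA and 38.7, 48.8, 45.9, 48.7 and 87.7 CPM in Active. All IBA libraries were above 4 of the Active libraries, and Active replicate 5 lay among them. The difference was 0.73 (SE 0.21, limma's adjusted p = 0.0894). Epm2a, the glycogen phosphatase laforin, was at 3.13 ± 0.568 CPM in IBA and 2.17 ± 0.419 CPM in Active (difference 0.44, limma's adjusted p = 0.152). Pygm, the muscle phosphorylase, had a difference of 0.21 (95% interval -0.59 to 1.02).

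Single libraries moved the differences of several members. The plot with each library left out shows that the difference was smallest without Active replicate 5 for Pgk1, Gapdh and Gpi, and without Active replicate 4 for Pygb. For Mpc2 the difference was nearest to 0 without IBA replicate 1 and farthest from it without IBA replicate 5. The sign of all 8 stayed the same in each of the 22 alternatives. In the authors' deposited table, 0 members had an FDR under 0.05, against 12 genes in the whole table, and the lowest FDR of a member was 0.159, for Pgk1. The log2 fold changes in that table run Active minus IBA. Turned to IBA minus Active, they were 0.50 for Pgk1, 0.68 for Ldha, 0.33 for Pygb and -0.29 for Slc2a1. An unadjusted p under 0.05 was given there for 6 members, Pgk1, Ldha, Gapdh, Pygb, Gpi and Pkm, all higher in IBA. Slc2a1, Mpc2 and Gbe1 were not among them (p = 0.062, 0.051 and 0.052 in the authors' test). The share of all genes at that level in the authors' test was not counted.

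**Figure D5:**
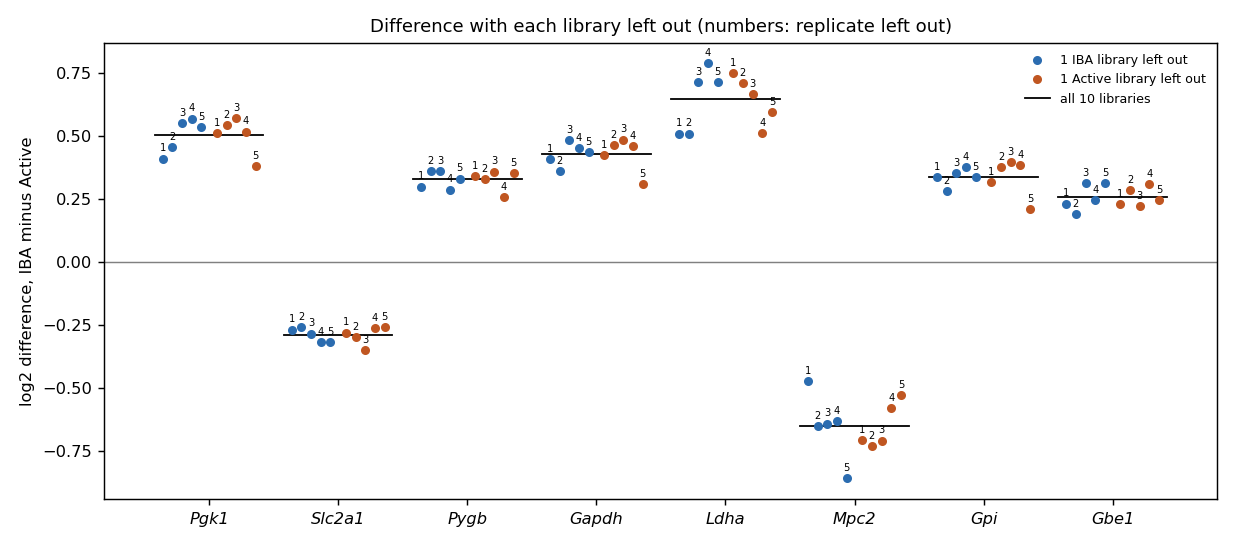
Log2 difference between IBA and Active for the 8 genes with an unadjusted p under 0.05, with 1 library left out at a time (points, numbered by the replicate left out) and with all 10 libraries (line). All signs stayed the same, and the values of Ldha ran from 0.51 to 0.79 and those of Mpc2 from -0.86 to -0.47.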

How the data were processed

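Polyadenylated RNA of 10 subfornical organs (5 IBA, 5 Active) was sequenced. The submitters' processing notes list STAR 2.7.7a, Trimmomatic 0.39, Subread 2.0.1 with featureCounts, R 4.2.1 and edgeR 3.38.4. Build, annotation, strand setting and treatment of multiply mapped reads are not given in the sources used here. Overlapping, antisense and duplicated genes are therefore uncertain. The values are, per the file headers, a deposited signal of normalised CPM per library, scaled so that column sums differ, and its mean per state. Beside these the authors deposited, per gene, the log2 fold change (Active minus IBA), the mean log2 CPM, the F statistic (a score), the p-value and its FDR.

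Divided by what 1 read is worth in its library, each CPM value came out whole (100%, tolerance 0.01 read). Genes averaging 1 CPM or more were tested with limma 3.58.1 (R 4.3.3) on log2(CPM + 0.5) with an intensity trend, two-sided, IBA minus Active, with Benjamini-Hochberg adjustment over 15445 genes and a threshold of 0.05. That scale understates changes of low genes. edgeR 4.0.16 and DESeq2 1.42.0 on recovered reads, other pseudocounts, filters and scalings, sample weights, no trend, a replicate block and left-out libraries were alternatives. The fit was tested on simulated counts. No member was under the filter, so the planned permutation test was not needed. The labels do not say whether libraries of equal replicate number belong together, so the replicate block was run only as an alternative.

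Members, lists and rules were chosen with earlier results of these data known. Named genes were all members, those with the smallest p in each role or an unadjusted p under 0.05 given per library, and, of the other pathway lists, the 12 genes with the smallest p plus 8 fixed ones, of which 1 is not reported here. No sequence was used here. The labels say biological replicates without naming animals, so p-values measure the spread between these libraries.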

Additional observations from a re-analysis of the deposited data

Results flagged for a closer look

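Within each state of 5 libraries, the highest or lowest library was compared with the rest by Dixon's ratio of gap to range, for the 36 members, 20 other pathway genes and 14 ratios. Of 140 groups, 5 exceeded the 95% critical value for 5 libraries, where chance gives about 1 in 20. Active replicate 4 had 219 CPM of Mpc1, where the rest of its state had 106 to 127 CPM. In the same library the ratio of Pfkp to Pfkm was 1.09, with 0.713 to 0.821 in the other Active libraries. This library was also the one with the highest choroid plexus markers, whose part in these values was not tested. Ppp1r3b was at 87.7 CPM in Active replicate 5 and at 38.7 to 48.8 CPM in the other Active libraries. Adm was at 30.4 CPM in Active replicate 2 and at 10.4 to 15.6 CPM in the others of that state. P4ha2 was at 27.0 CPM in IBA replicate 4 and at 35.4 to 38.3 CPM in the other IBA libraries.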

How the results depend on the processing

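The number of genes called over all genes tested was 62. It was 6 with no filter on low values, 121 with sample weights, 231 with the replicate block, 1527 in DESeq2, 0 without Active replicates 4 and 5 (2191 at an unadjusted p under 0.05 in limma) and 4 to 245 with 1 library left out. Members called were 0 in the fit of all libraries and 1 each with the replicate block (Ldha, adjusted p = 0.0448 in limma) and in DESeq2 (Slc2a1). Members at an unadjusted p under 0.05 were 8 in the fit of all libraries, 5 without Active replicates 4 and 5, and 5 to 10 with 1 library left out. The shares of all genes were 23.9%, 14.2% and 17.9% to 24.4%. The count of members higher in IBA was 20 to 26 over the alternatives, in which 40.2% to 56.5% of all genes were above 0. Same-numbered libraries had correlations of deviations from their group means of 0.12, 0.10, -0.17, -0.0089 and 0.20. Not every library correlated best with its own number. The labels do not say whether equal numbers belong together, and these correlations cannot settle it. With the replicate block, 8 members had an unadjusted p under 0.05, the same 8 genes.

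Differences near 0 changed sign. With equal library totals, Hk1, Pfkm, Aldoc and Pdp1 were at -0.0097, -0.012, -0.023 and -0.013. With sample weights, Aldoc, Mpc1 and Pdk2 were at -0.014, 0.046 and 0.036. In edgeR, Aldoc and Pdp1 were at -0.027 and -0.0016, and in DESeq2 Aldoc was at -0.024. Without Active replicates 4 and 5, Pfkm, Aldoc, Mpc1, Pdk1, Pdk2, Pygl, Slc16a1, Pygm and Vegfa were at -0.053, -0.12, 0.11, 0.017, 0.059, -0.095, -0.024, -0.17 and 0.054. With 1 library left out, the ranges that crossed 0 were -0.00082 to 0.10 for Hk1, -0.051 to 0.085 for Pfkm, -0.12 to 0.050 for Pfkl, -0.18 to 0.18 for Aldoc, -0.042 to 0.23 for Tpi1, -0.31 to 0.061 for Pgam1, -0.098 to 0.16 for Mpc1, -0.20 to 0.042 for Dlat, -0.092 to 0.039 for Pdk2, -0.045 to 0.11 for Pdp1, -0.15 to 0.31 for Pygl, -0.047 to 0.23 for Slc16a1, -0.055 to 0.46 for Pygm, -0.17 to 0.060 for Hif1a. The cause was not tested. With 5 libraries a state, changes of the size seen here could pass unseen.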

Other observations

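Targets of hypoxia-inducible factor outside the 36 genes pointed in both directions. Of 16 measured, 11 had a positive log2 difference, with a median of 0.060, where 54.1% of all genes tested were above 0. An unadjusted p under 0.05 was found for 8, 5 higher and 3 lower in IBA. Of all genes tested 23.9% had such a p, 12.7% higher and 11.1% lower. After adjustment in limma over all genes, 0 of the 16 passed. The 3 lower genes are named here, but of the 5 higher only Bnip3l and Adm fell under the naming rule. P4ha1, a collagen prolyl hydroxylase, had 61.0, 73.8, 72.6, 57.4 and 54.7 CPM in IBA and 97.5, 95.2, 93.7, 80.5 and 81.8 CPM in Active. The states did not overlap, and the log2 difference was -0.49 (SE 0.11). Its adjusted p was 0.0603 in limma and 0.000931 in DESeq2, which called 1527 genes in all. P4ha2, a related enzyme, had a difference of -0.45, and Egln3, an oxygen-sensing prolyl hydroxylase, one of -0.37. Bnip3l, a receptor for removal of mitochondria, was at 364, 335, 281, 334 and 299 CPM in IBA and 276, 240.2, 265, 215 and 201 CPM in Active, also without overlap (difference 0.43, adjusted p = 0.0749 in limma). Adm, the peptide adrenomedullin, had means of 28.6 ± 6.33 CPM in IBA and 16.9 ± 7.85 CPM in Active (SD, n = 5 each) and a difference of 0.81. Vegfa was at 3.08 ± 0.458 CPM in IBA and 3.93 ± 1.4997 CPM in Active, a difference of -0.26. Hif1a, the oxygen-regulated subunit itself, was at 193 ± 29.1 CPM in IBA and 204 ± 47.9 CPM in Active (difference -0.057, 95% interval -0.40 to 0.29), and Hif3a, a low-level relative, at 1.44 ± 0.410 CPM in IBA and 3.04 ± 1.60 CPM in Active (difference -0.78). Txnip, a glucose-responsive inhibitor of glucose uptake, was at 1645 ± 529 CPM in IBA and 1276 ± 292 CPM in Active (difference 0.35, 95% interval -0.14 to 0.83).

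Side routes of glucose carbon were also measured. In the pentose phosphate pathway 1 of 8 genes had an unadjusted p under 0.05. Taldo1, transaldolase, was at 220.2, 217, 143, 194 and 223 CPM in IBA and 134, 175, 160.2, 129 and 131 CPM in Active, with IBA replicate 3 inside the Active range (difference 0.44, adjusted p = 0.1004 in limma). Of 9 genes of the shuttles that pass cytosolic reducing power to mitochondria, 2 had an unadjusted p under 0.05, both lower in IBA. Slc25a11, the malate carrier of the inner membrane, was at 61.6, 62.3, 50.3, 66.8 and 82.5 CPM in IBA and 80.4, 95.9, 73.8, 95.8 and 117 CPM in Active (difference -0.51, adjusted p = 0.0862 in limma). Slc25a13, an aspartate-glutamate carrier, had a difference of -0.48 and was named after its value was seen, as were the next 2 genes. Of 3 genes of gluconeogenesis and anaplerosis, 1 had an unadjusted p under 0.05, Pck2, the mitochondrial carboxykinase (difference 0.38). Of 12 transcription factor genes tied to glycolysis, 2 did, both lower in IBA, Hif3a and the carbohydrate-response factor gene Mlxipl (difference -0.40). Over all 101 pathway genes outside the members, 21 had an unadjusted p under 0.05, or 20.8%, beside 23.9% of all genes tested.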
